A study of Homo sapiens with 28 samples.

Results

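The matrix metalloproteinase (MMP) window is a stretch of human chromosome 11 in which 9 metalloproteinase genes lie side by side. It was taken as chr11:102380000-102850000 of build hg19, 470 kb that run from the MMP7 end to the MMP13 end, and every peak of the 28 peak lists that overlapped it was used. That gave 390 peaks of 1123337 in all. Joined by overlaps of at least 1 bp across the 28 lists, they formed 79 sites, numbered here from the MMP7 end, which covered 49.9 kb or 10.6% of the window.

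Protein binding and a histone mark were mapped by CUT&RUN, in which a nuclease tethered to an antibody cuts the DNA beside the bound protein, in IMR-90 ER:Ras cells. IMR-90 is a human fetal lung fibroblast line, and ER:Ras is an oncogenic Ras that 4-hydroxytamoxifen (4-OHT) switches on, here at 100 nM for 6 days, which drives the cells into senescence. There were 8 lists for FOXF1, a forkhead transcription factor of mesenchyme, 6 for p-c-JUN (c-JUN in its phosphorylated form, a protein of the AP-1 dimer), and 14 for H3K27ac, a histone acetylation found at enhancers and promoters in use. The groups were proliferating cells (Pro), senescent cells (Sen), and senescent cells after siRNA to FOXF1 and FOXF2 (siFOXF1/2), to p300 and CBP, which acetylate histones (sip300/CBP), or to JUN proteins (JUN-KD). Each group had 2 libraries, except H3K27ac in Sen cells, which had 2 in each of 2 deposits.

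All Pro and Sen libraries carried a control siRNA (siCtrl) per their treatment tags. The Pro libraries also carried the tags for 4-OHT and for senescent fibroblasts, against their titles, and were taken as Pro from the titles. The titles of JUN-KD name cJUN and JUND, and its treatment tags add JUNB. The sip300/CBP libraries had a Sen control of their own. All cells came from 1 line, and nothing says that the 2 libraries of a group came from separate cultures. The p-values below therefore measure only the spread between libraries, which may be technical. With 2 libraries against 2 they cannot fall below 0.333.

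MMPs are secreted, zinc-dependent enzymes that cut proteins of the extracellular matrix and are made as inactive proenzymes. MMP1, MMP8 and MMP13 are the collagenases of the cluster, which cut fibrillar collagen. MMP3 and MMP10 are stromelysins with wide substrate ranges, and MMP7 is matrilysin, a small enzyme known mainly from epithelia. MMP12 is the macrophage elastase, MMP20 is enamelysin of tooth enamel, and MMP27 is a less studied relative of the stromelysins. Several of them, MMP1 and MMP3 among them, are known members of the senescence-associated secretory phenotype of fibroblasts, and AP-1 is a long-known regulator of their promoters.

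The RefSeq table places the genes in the order MMP7, MMP20, MMP27, MMP8, MMP10, MMP1, MMP3, MMP12 and MMP13. No other protein-coding gene stands between MMP7 and MMP13 in it. TMEM123 is the next protein-coding gene on the MMP7 side and DCUN1D5 the next on the MMP13 side. That table is of build GRCh38.p14, while the peaks are in hg19. Peaks are therefore given by position, and none was assigned to 1 gene of the 9, to an exon or to an intron. Other metalloproteinase genes and their inhibitors elsewhere in the genome were not analysed here.

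Promoter sequences in RefSeq (GRCh38.p14, from 250 bases before to 50 after each start) were found for 5 of the 9 genes: MMP7, MMP20, MMP27, MMP8 and MMP10. They are shown because the AP-1 element, TGANTCA read on both strands, is the sequence that JUN proteins bind. It was present in 3 of the 5, against 2707 of 35116 promoters of the same length (7.71%). The forkhead element TGTTTAC, read on both strands, was in 1 of the 5 (3.42% of all), and the forkhead variant TGTTTGC in 0 of the 5 (3.89% of all). All 4 stretches lie on the minus strand and are written 5′ to 3′ along the gene, with the matched element in capitals. The element begins 67 bases before the start of MMP7 and of MMP10, 112 before that of MMP20 and 151 before that of MMP27. These matches describe letters only, and whether a peak lies on them could not be read across builds.
MMP7 (chr11:102530781-102530841): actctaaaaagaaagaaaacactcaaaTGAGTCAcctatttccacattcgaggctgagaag
MMP10 (chr11:102780662-102780722): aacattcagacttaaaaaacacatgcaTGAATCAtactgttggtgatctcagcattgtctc
MMP20 (chr11:102625411-102625471): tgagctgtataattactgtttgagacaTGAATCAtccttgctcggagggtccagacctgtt
MMP27 (chr11:102705887-102705947): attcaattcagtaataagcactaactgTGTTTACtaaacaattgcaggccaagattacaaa

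Of the 79 sites, 52 held a p-c-JUN peak in at least 1 library, 61 an H3K27ac peak and 22 a FOXF1 peak. Peaks of a single antibody marked 41 sites, 20 sites had peaks of 2 antibodies and 18 had all 3. A single library accounted for 27 of the sites, and no site was held by more than 17 of the 28 lists. A peak-free stretch of 27.4 kb, chr11:102601395-102628835, divided the window into a lower side with 42 sites and an upper side with 37. The read depth of the libraries is unknown. The number of fragments stacked at each summit (the pileup) could be solved from the deposited fold and p for all 390 peaks, and it ran from 5 to 259 with a median of 18.

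**Figure D1:**
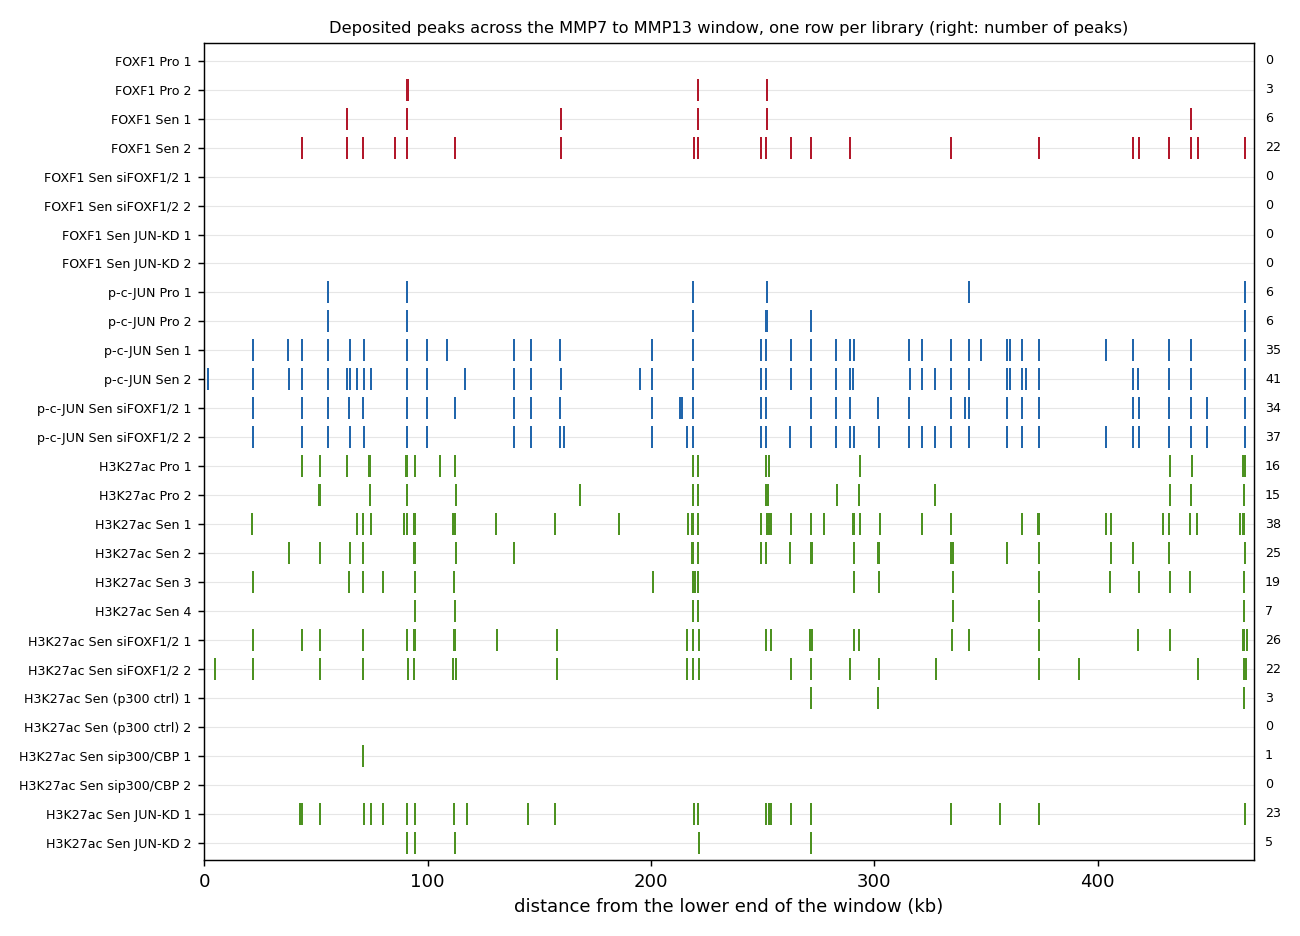
Deposited peaks across the MMP window, by distance from its lower (MMP7) end in kb, with 1 row per library, ticks at peaks and the number of peaks at the right. The p-c-JUN rows of Sen cells hold 35 and 41 peaks against 6 and 6 in Pro cells, and the FOXF1 rows after either knockdown are empty.

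Of the 9 comparisons, the one of p-c-JUN between Pro and Sen cells had the largest difference in kb of window length under peaks. The Pro lists held 6 and 6 peaks in the window and the Sen lists 35 and 41. These peaks covered 2.46 and 2.67 kb in Pro cells and 16.0 and 17.1 kb in Sen cells, so the groups did not overlap. The means were 2.56 ± 0.153 kb in Pro and 16.6 ± 0.733 kb in Sen cells (SD, n = 2 each), a 6.46-fold ratio and a difference of 14.0 kb that was far larger than either SD (exact two-sided permutation test, p = 0.333, the smallest possible). The Sen lists were also longer as a whole, with 70177 and 93443 peaks against 24808 and 32136. As a share of all sequence under peaks in its list, the window took 0.0230% and 0.0200% in Pro cells and 0.0520% and 0.0442% in Sen cells, a ratio of 2.24 with no overlap (exact p = 0.333). Both ratios were larger for FOXF1 in Sen against Pro cells, at 16.2 and 5.89, where 1 Pro library had 0 kb. The ratio of shares was also larger for H3K27ac, at 2.42.

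A region was counted as gained where both libraries of the first-named group and neither of the other held a peak, and as lost in the reverse case. In Sen against Pro cells, 25 of 44 p-c-JUN regions of the window were gained (56.8%), where 28.0% of all regions of these 4 lists were. No window region was lost (0.307% of all), and 5 were held by all 4 libraries (18.1% of all). In the stretches of equal length on either side of the window, 11 of 42 regions on the MMP7 side and 8 of 28 on the MMP13 side were gained. With every list cut to the 24808 peaks with the best −log10 q, 13 of 25 window regions were gained (52.0%), where 10.2% of all regions were, and none was lost (8.41% of all). Gained regions lay on both sides of the peak-free stretch, 10 below and 15 above.

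The gained p-c-JUN region ranked highest by −log10 q was at site 13, chr11:102450946-102451239, with fold enrichments over the local background of 14.0 and 14.4 and pileups of 53 and 55 in the 2 Sen libraries. Site 71 followed at chr11:102795389-102796020, with folds of 14.9 and 17.3 and pileups of 50 and 67. Site 74, chr11:102811549-102811897, had folds of 14.8 and 14.9. These 3 stood well above the weakest gained region, which was at site 5 with folds of 5.73 and 3.70 and pileups of 10 and 5. Next in rank were site 43 (chr11:102628863-102629414, folds 7.67 and 8.08) and site 67 (chr11:102753254-102754043, folds 10.7 and 16.8). The other regions among the first 10 were at sites 75, 58, 11, 56 and 55, with folds between 7.75 and 16.4.

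The 5 p-c-JUN regions present in Pro as well as Sen cells were at sites 9, 18, 41, 44 and 79. All 5 were also present in both siFOXF1/2 libraries (100%), near the 96.4% of such regions over all chromosomes. Site 18, chr11:102470153-102471036, had folds of 16.9 and 19.8 in the Pro lists, 17.6 and 17.0 in the Sen lists and 16.9 and 16.6 in the siFOXF1/2 lists. Its pileups were 91 and 100 in the Pro, 239 and 183 in the Sen and 259 and 189 in the siFOXF1/2 lists. Read depth is unknown, so neither measure compares lists. The Pro peaks of site 18 ranked 413 of 24808 and 301 of 32136 by fold and were the highest of the window in both lists. Site 79, at the MMP13 end (chr11:102845442-102846124), had folds of 16.3 and 16.2 in Pro, 23.6 and 19.6 in Sen and 24.2 and 24.3 in siFOXF1/2 cells. By fold it was the highest window peak in all 4 senescent lists, ranking 159 of 70177 and 609 of 93443 in the Sen lists. By pileup site 18 stood above it in all 4, at 239 and 183 against 144 and 85 in the Sen lists. A further pair of sites fell between the classes, with p-c-JUN in both Sen libraries and in 1 Pro library: site 48 (fold 4.42 in Pro library 2) and site 60 (fold 7.05 in Pro library 1).

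**Figure D2:**
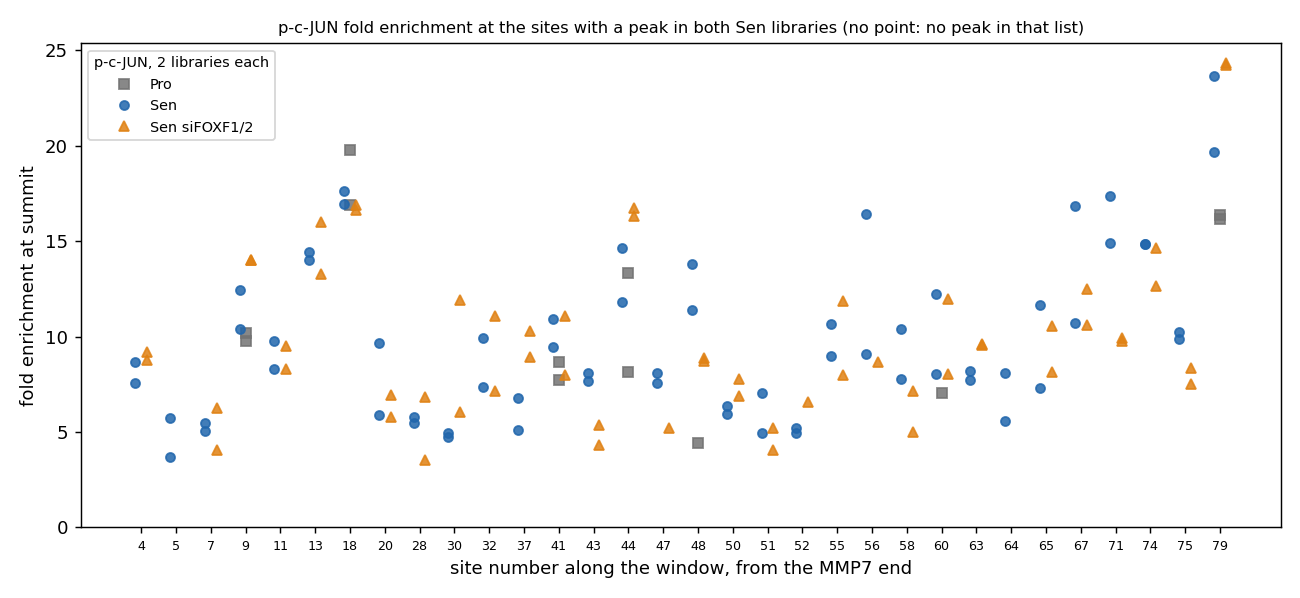
Fold enrichment at the summit for p-c-JUN (vertical axis, no unit) at the 32 sites with a peak in both Sen libraries (horizontal axis, site number from the MMP7 end), 1 symbol per library. Pro squares appear at 7 of the sites only, and siFOXF1/2 triangles are absent from both libraries at sites 5 and 64. Folds describe each list and do not compare lists.

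After siFOXF1/2 in senescent cells, p-c-JUN peaks were still present in both libraries at 27 of the 32 sites (84.4%). The share of such sites over all chromosomes was not counted. Over all chromosomes, both siFOXF1/2 libraries held 62.9% of p-c-JUN regions gained in senescence and 96.4% of those held by all Pro and Sen libraries. The siFOXF1/2 lists held 34 and 37 peaks in the window and covered 16.4 and 16.5 kb, inside the range of the 2 Sen libraries. The mean of 16.5 ± 0.0113 kb (SD, n = 2) differed from Sen by -0.103 kb, less than the spread of the Sen libraries (exact two-sided permutation test, p = 1). All 4 libraries held 27 of 52 window regions (51.9%), where 35.9% of all regions were so held. Gained and lost regions numbered 2 each, at 3.85% of the window regions, beside 4.47% gained and 4.03% lost over all regions.

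The p-c-JUN regions lost after siFOXF1/2 were at site 64 (chr11:102740146-102740382, Sen folds 5.57 and 8.11) and site 5 (chr11:102417281-102417909, Sen folds 5.73 and 3.70). Those gained were at site 77 (chr11:102828536-102829032, folds 4.62 and 5.67) and site 54 (chr11:102681436-102682332, folds 4.40 and 5.73). Site 64 reached the median fold of its window peaks in Sen library 2, with a pileup of 24, and the other 3 had pileups of 10 or fewer. Without siFOXF1/2 library 1 or 2 the gained count was 4 or 6, and without Sen library 1, Sen library 2 or siFOXF1/2 library 2 the lost count was 9, 4 or 5. Of the 25 regions gained in senescence, 20 held a p-c-JUN peak in both siFOXF1/2 libraries (80.0%), against 62.9% of such regions over all chromosomes. Sites 47, 52 and 56 kept it in 1 of the 2, and sites 5 and 64 in neither.

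FOXF1 peaks in the window were few and came mainly from 1 library. As a check of the knockdown, the FOXF1 antibody gave 13603 and 40537 peaks over all chromosomes in Sen cells and 186 and 133 after siFOXF1/2. In the window the Pro lists held 0 and 3 FOXF1 peaks, the Sen lists 6 and 22, and the siFOXF1/2 and JUN-KD lists 0 in all 4 libraries. Sequence under peaks measured 0 and 0.681 kb in Pro cells and 2.49 and 8.52 kb in Sen cells. The means, 0.341 ± 0.482 and 5.51 ± 4.26 kb (SD, n = 2 each), differed by 5.17 kb with no overlap, but by little more than the spread within Sen (exact two-sided permutation test, p = 0.333). Per list length the 2 Sen libraries were close, with 0.0550% and 0.0532% of their peak sequence in the window, against 0% and 0.0184% in Pro cells.

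All 6 FOXF1 regions held by both Sen libraries are named here. The highest was at site 18 (chr11:102470229-102471058), with folds of 12.1 and 12.1 and pileups of 37 and 55, ranking 207 of 13603 and 654 of 40537. Site 44 (chr11:102631168-102631576) had folds of 9.12 and 9.50, and site 42 (chr11:102600776-102601286) had 5.41 and 5.46. These 3 sites were also the ones with a peak in Pro library 2, at folds of 7.60, 5.17 and 5.05. The other 3 had no Pro peak and counted as gained: site 10 (chr11:102443393-102443880, folds 6.46 and 7.31), site 75 (chr11:102821441-102822120, folds 6.74 and 6.34) and site 32 (chr11:102539157-102539363, folds 6.35 and 6.00). The remaining 16 FOXF1 sites had a peak in Sen library 2 only.

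In Sen against Pro cells 3 of 22 FOXF1 regions of the window were gained (13.6%), close to the 13.1% of all regions. In the neighbouring stretches 7 of 24 on the MMP7 side (29.2%) and 2 of 10 on the MMP13 side (20.0%) were gained. None was lost (0.350% of all) or held by all 4 libraries (4.50% of all). The count was 19 without Sen library 1 and 6 without Pro library 2. After siFOXF1/2, 6 of the 22 regions were lost (27.3%) beside 26.2% of all regions, with none gained (0.0607% of all) and none held by all (0.121% of all). After JUN-KD the same Sen libraries served as the control, and 6 of 22 were again lost beside 25.4% of all, with none gained (0.148%) and none held by all (0.194%). Either count of lost regions was 22 without Sen library 1. The JUN-KD libraries for FOXF1 belong to the second deposit and their Sen controls to the first, so the knockdown and the deposit cannot be told apart. Their lists were short everywhere, with 378 and 883 peaks.

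FOXF1 and p-c-JUN shared sites in the window. Of the 22 sites with FOXF1 in a Sen library, 16 had p-c-JUN in both Sen libraries (72.7%, against 59.3% of such sites over all chromosomes). H3K27ac of at least 1 of the 4 Sen libraries was at 17 of the 22 (77.3%, against 77.4% of all). At the 18 sites with summits of both factors in Sen libraries, the summits lay a median of 64 bp apart, against 108 bp over 31137 such sites in all. They lay within 100 bp at 14 of the 18 (77.8%, against 47.3% of all), a description without a test. Of the 18, only sites 10, 18, 32, 44 and 75 had a FOXF1 summit from Sen library 1, and the others rested on Sen library 2 alone. The distance, as a median over library pairs, was 58.0 bp at site 18 and 20.0 bp at site 44, and it was longest at sites 7 (243 bp), 51 (179 bp) and 67 (155.5 bp). Counting only regions present in both Sen libraries, 4 of 6 for FOXF1 (66.7%) coincided with p-c-JUN, against 73.9% over all chromosomes, and 4 of 32 for p-c-JUN (12.5%) with FOXF1, against 14.1%. Both shares in the window were near those over all regions. With H3K27ac regions of both Sen libraries 1 and 2, 1 of the 6 FOXF1 regions overlapped directly (16.7%), against 69.1% of all. That low share depended on the rule. By site, H3K27ac of at least 1 of the 4 Sen libraries was at 4 of the 6 (sites 18, 42, 44 and 75). Sites 42 and 44 had peaks of both Sen libraries 1 and 2. The share over all regions by this looser rule was not counted. At the 25 p-c-JUN regions gained in senescence, 11 had FOXF1 in at least 1 Sen library (44.0%, against 28.5% of all gained regions), most of them in Sen library 2 alone.

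**Figure D3:**
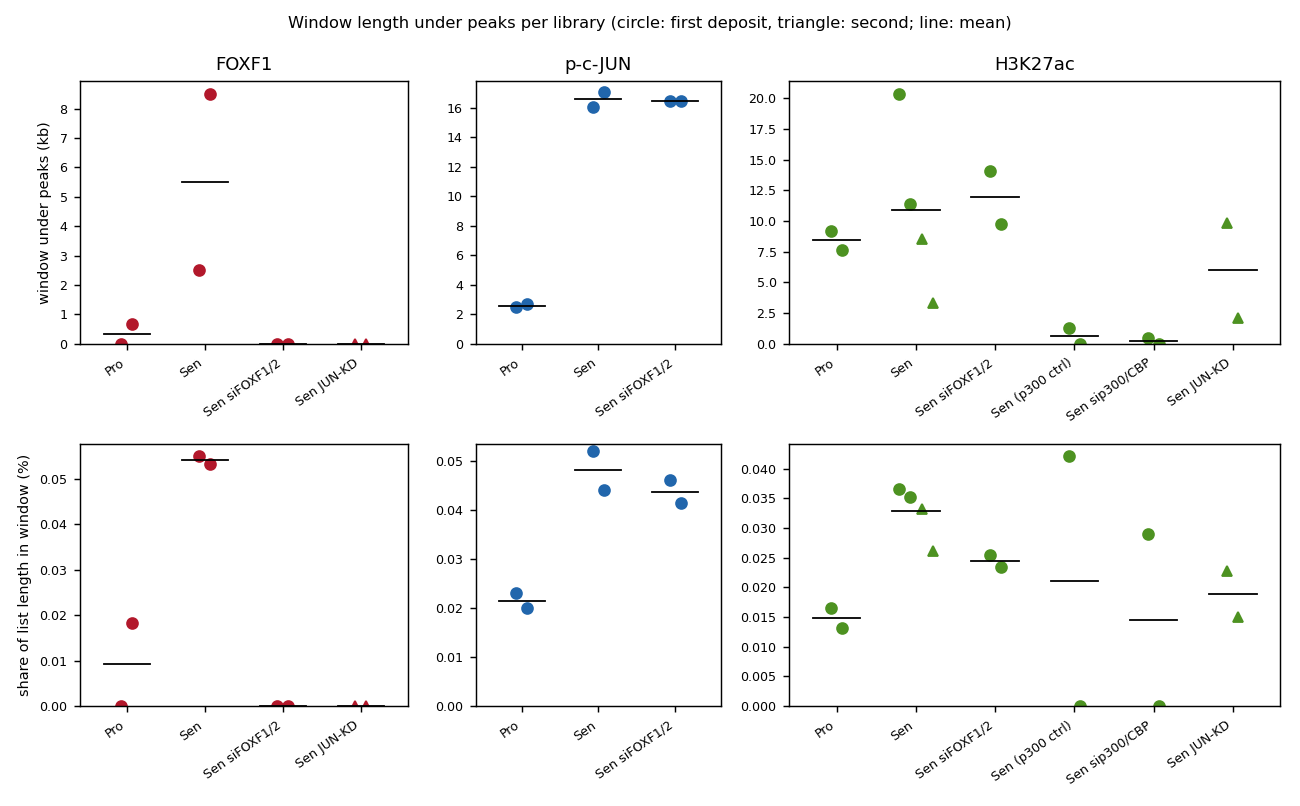
Length of the window under peaks in kb (top) and as a percentage of all sequence under peaks in the same list (bottom), by antibody and condition, with 1 point per library (circles first deposit, triangles second) and lines at the means. The p-c-JUN points of Sen and siFOXF1/2 cells lie between 16.0 and 17.1 kb, and both Pro points lie below 3 kb.

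H3K27ac peaks of the window were more numerous in Sen libraries 1 and 2, with 38 and 25, than in the Pro libraries, with 16 and 15. They covered 9.21 and 7.66 kb in Pro cells and 20.4 and 11.4 kb in Sen cells, with no overlap. The means of 8.43 ± 1.09 and 15.9 ± 6.37 kb (SD, n = 2 each) differed by 7.46 kb, little more than the SD of Sen (exact two-sided permutation test, p = 0.333). Whole lists held 84864 and 60862 peaks in these Sen libraries and 84304 and 89329 in the Pro libraries, so the Sen lists did not lie above the Pro range. The share of the list's peak sequence in the window was 0.0165% and 0.0132% in Pro and 0.0366% and 0.0353% in Sen libraries, a ratio of 2.42 (exact p = 0.333). Sen libraries 3 and 4, from the second deposit, held 19 and 7 peaks in shorter lists of 48859 and 26694 and covered 8.57 and 3.29 kb, so that their mean lay below Pro (difference -2.51 kb). Their shares of 0.0333% and 0.0262% were both above the Pro values. Over all 4 Sen libraries the share was 0.0328 ± 0.00464% (SD, n = 4) against 0.0148 ± 0.00233% (SD, n = 2), with an exact two-sided permutation p = 0.0667, the smallest that 4 against 2 allow.

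In Sen libraries 1 and 2 against Pro, 8 of 53 H3K27ac regions were gained (15.1%) where 4.51% of all regions were. A single region was lost (1.89%, beside 9.56% of all), and 6 were held by all 4 libraries (25.9% of all). The neighbouring stretches gained 2 of 65 regions on the MMP7 side and 4 of 49 on the MMP13 side. With lists cut to 60862 peaks each, 8 of 38 regions were gained (21.1%, beside 6.85% of all) and none was lost (8.84% of all). A −log10 q of at least 5 left 3 gained. With peaks required in all 4 Sen libraries 2 were gained, and leaving out Sen library 1 or 2, which loosens the rule to 1 library, gave 17 or 27. The lost count was 5 without Sen library 1, 2 without Sen library 2 and 4 without either Pro library. Of the 8, 7 lay above the peak-free stretch, on the MMP13 side.

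The 8 gained H3K27ac regions were mostly places where p-c-JUN was also present. Site 13 (chr11:102450594-102451454) had folds of 4.92 and 4.13 in Sen libraries 1 and 2 and pileups of 36 and 27. Site 67 (chr11:102753119-102754142) had 6.25 and 5.86, and also 7.26 and 6.14 in Sen libraries 3 and 4. It was the 1 gained region itself overlapped by peaks of all 4. Site 58 held peaks of all 4 Sen libraries too, at folds of 3.58, 3.34, 4.03 and 3.85, but not all of them overlapped its gained region. Site 48 (chr11:102651050-102651898) had 5.48 and 3.69, and site 70 (chr11:102785563-102786197) had 4.40 and 6.24. The rest were at sites 52, 47, 58 and 43, with folds between 2.70 and 4.99. The lost region was at site 14 (chr11:102453556-102454165, Pro folds 3.14 and 3.42).

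All but site 70 of these 8 regions overlapped p-c-JUN in both Sen libraries, which is 87.5% against 36.7% of all H3K27ac regions gained in senescence. A FOXF1 peak of at least 1 Sen library was present at 6 of the 8 (75.0%, against 33.2%), and none had FOXF1 in both (0% against 8.18%). In the other direction, of the 32 sites with p-c-JUN in both Sen libraries, 22 had H3K27ac in at least 1 Sen library (68.8%, against 69.9% of such sites over all chromosomes). H3K27ac was in none of the 14 lists at 6 of them (18.8%, against 16.9% of all), so both shares were near the background. Those among the 25 gained p-c-JUN regions were sites 20, 30, 32, 55 and 64. Only 3 of the 25 gained p-c-JUN regions overlapped H3K27ac in a Pro library (12.0%), against 42.8% of all gained p-c-JUN regions. No test of these shares was made, since regions of a window are not independent of each other.

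**Figure D4:**
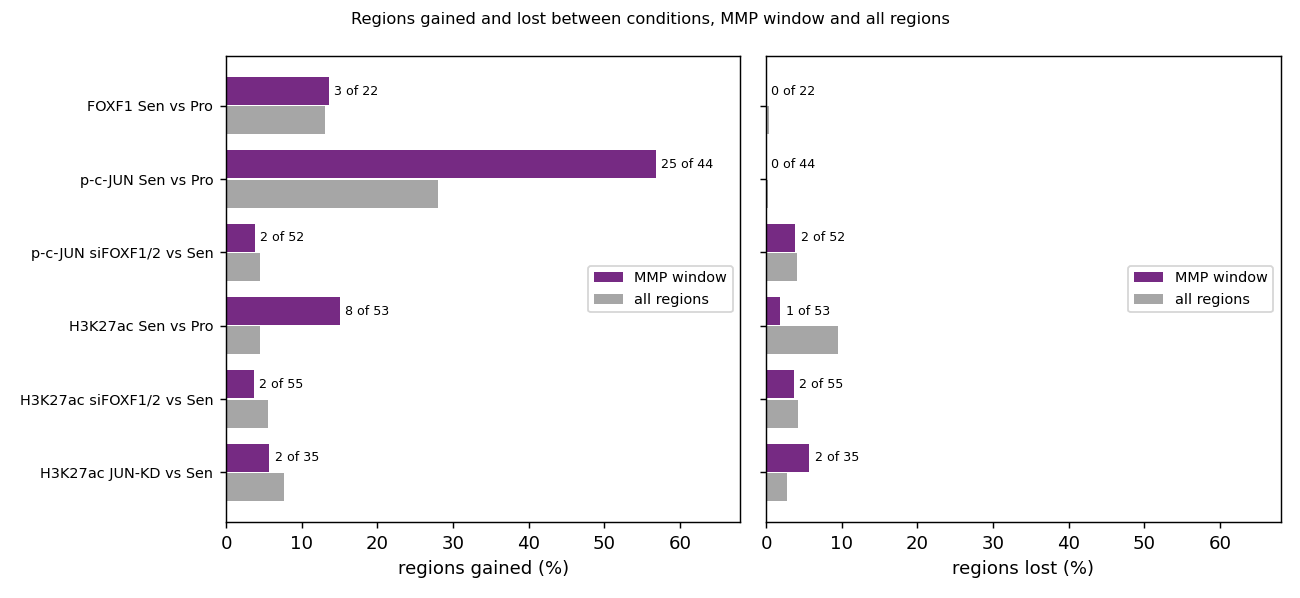
Percentage of regions gained (left) and lost (right) in 6 comparisons, for the MMP window (purple, with counts) and for all regions of the same lists (grey). The purple bars reach 56.8% for p-c-JUN and 15.1% for H3K27ac in Sen against Pro cells, above the grey bars at 28.0% and 4.51%.

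After siFOXF1/2 the H3K27ac lists held 26 and 22 window peaks and covered 14.1 and 9.78 kb. That mean of 12.0 ± 3.07 kb was 3.94 kb below Sen libraries 1 and 2, within their spread (exact two-sided permutation test with n = 2 each, p = 0.667). As a share of the list, the window took 0.0254% and 0.0234%, below both Sen libraries at a ratio of 0.680 (exact p = 0.333) and above both Pro libraries. Against all 4 Sen libraries the ratio was 0.744 with exact p = 0.133, and the lowest Sen value, 0.0262%, lay next to the highest siFOXF1/2 value. Region counts moved little: 2 of 55 gained (3.64%, beside 5.51% of all), 2 lost (4.26% of all) and 8 held by all 4 libraries (14.5%, beside 26.7% of all).

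The H3K27ac regions lost after siFOXF1/2 were at sites 70 and 43, both among the 8 gained in senescence. Those gained were at site 4 (chr11:102401445-102401808, folds 4.31 and 3.87) and at the upper edge of site 79 (chr11:102846111-102846665, folds 2.87 and 3.87). The adjoining part of site 79, chr11:102844761-102846104, was held by all 4 libraries. Of the 8 regions gained in senescence, 3 kept a peak in both siFOXF1/2 libraries (37.5%, against 32.5% of all such regions) and 2 in neither (25.0%, against 42.5%). The 3 were at sites 13, 48 and 67, with folds of 5.22 and 4.55, 3.83 and 5.84, and 6.16 and 5.03. Leaving out a library, which loosens the rule, raised both counts. Lost regions numbered 9 without Sen library 1 and 17 without Sen library 2. They numbered 5 without siFOXF1/2 library 1 and 3 without siFOXF1/2 library 2. Gained regions numbered 6 without any 1 of siFOXF1/2 library 1, siFOXF1/2 library 2 or Sen library 1, and 3 without Sen library 2. Against all 4 Sen libraries none was lost.

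After JUN-KD, compared with Sen libraries 3 and 4 of the same deposit, H3K27ac showed a wide spread. The JUN-KD lists held 23 and 5 window peaks, at 9.84 and 2.09 kb, and the Sen lists 19 and 7, at 8.57 and 3.29 kb. The means of 5.96 ± 5.49 and 5.93 ± 3.73 kb (SD, n = 2 each) could not be separated (exact two-sided permutation test, p = 1). Shares of list length were 0.0227% and 0.0149% after JUN-KD and 0.0333% and 0.0262% in Sen cells, a ratio of 0.633 with no overlap (exact p = 0.333). Against all 4 Sen libraries the ratio was 0.573 (exact p = 0.0667, the smallest possible), over libraries of both deposits.

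In the same comparison 2 of 35 regions were gained (5.71%, beside 7.66% of all), 2 were lost (beside 2.74% of all) and 3 were held by all 4 libraries (8.57%, beside 11.8% of all). The gained regions were at site 48 (chr11:102651131-102651579, folds 8.29 and 4.70) and site 18 (chr11:102470463-102471003, folds 2.24 and 3.11). Site 48 also had H3K27ac in Sen libraries 1 and 2 of the first deposit, and site 18 in Sen library 1 (fold 2.86). Both gains therefore rested on which Sen libraries served as controls. Site 18 held the mark in both Pro and both siFOXF1/2 libraries too. The lost regions were at site 58 (chr11:102714619-102715515, Sen folds 4.03 and 3.85) and at the lower edge of site 79 (chr11:102844938-102845454, Sen folds 3.80 and 5.27). Elsewhere in these sites JUN-KD library 1 still held a peak, at folds of 3.48 and 4.47. Sites 19, 23 and 42 were held by all 4. None was gained or lost against all 4 Sen libraries, 16 were gained without JUN-KD library 2, and 4 or 12 were lost without JUN-KD library 1 or Sen library 4.

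The sip300/CBP comparison held almost no peaks in the window. Its Sen control lists had 3 and 0 (at sites 48, 54 and 79) and the sip300/CBP lists 1 and 0 (at site 13, fold 3.44). Whole lists were short as well, with 8234 and 2046 peaks in the control and 4186 and 1549 after sip300/CBP. The window lengths, 1.24 and 0 kb against 0.423 and 0 kb, overlapped (exact two-sided permutation test, p = 1). Of 4 regions, 0 were gained (2.02% of all), 0 lost (2.69% of all) and 0 held by all 4 libraries (0.490% of all), with at most 3 window peaks in any of the 4 lists. Without control library 2 the lost count was 3, and without sip300/CBP library 2 the gained count was 1.

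Set against the stretches of equal length on either side, the window held a larger part of the peak sequence in Sen than in Pro cells for each antibody. For p-c-JUN the window's part of the 3 stretches was 20.4% and 22.9% in Pro, 41.5% and 39.0% in Sen and 40.2% and 37.3% in siFOXF1/2 cells (Sen against Pro, exact two-sided permutation p = 0.333). For H3K27ac it was 17.3% and 13.5% in Pro cells and 28.5%, 27.6%, 34.2% and 32.6% in Sen libraries 1 to 4. The siFOXF1/2 libraries lay between at 24.4% and 22.9%, and the JUN-KD libraries had 27.8% and 26.0%. For FOXF1 it was 0% and 18.5% in Pro cells and 33.8% and 39.2% in Sen cells, where the 0% came from a library with a single peak of 0.257 kb in the 3 stretches. In none of the 3 did Pro and Sen values overlap. This measure was added after the data had been seen.

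**Figure D5:**
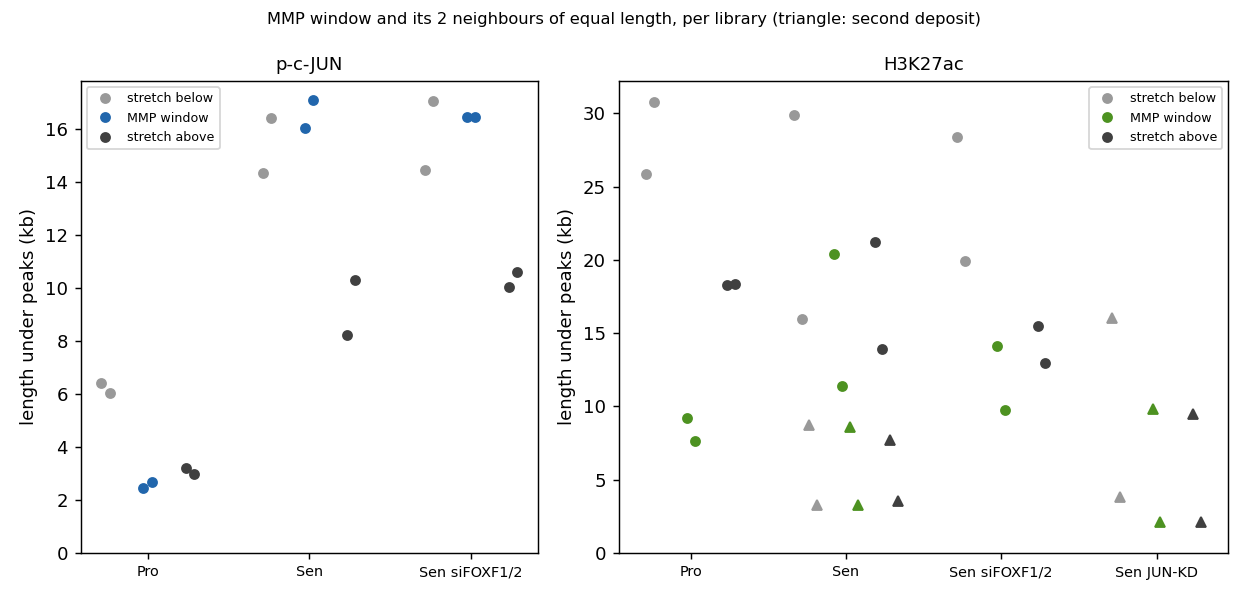
Length under peaks in kb in the MMP window (coloured) and in the stretches of equal length below it (light grey) and above it (dark grey), for p-c-JUN (left) and H3K27ac (right), with 1 point per library and triangles for the second deposit. In Pro cells the window lies below both neighbours for p-c-JUN, and in Sen cells it lies above the upper neighbour in both libraries.

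The 2 sides of the peak-free stretch differed in H3K27ac. Above it, toward MMP13, the mark covered 3.67 and 3.61 kb in the Pro libraries and 11.3, 6.34, 3.99 and 1.87 kb in Sen libraries 1 to 4. Below it, toward MMP7, it covered 5.54 and 4.05 kb in Pro cells and 9.07, 5.05, 4.58 and 1.42 kb in Sen cells. Sen libraries 1 and 2 thus exceeded both Pro libraries above the stretch, while below it Sen library 2 lay between them. For p-c-JUN both sides were higher in Sen than in Pro libraries, at 6.72 and 7.52 against 1.28 and 1.51 kb below the stretch and 9.31 and 9.55 against 1.17 and 1.16 kb above it. The sides were chosen after the peaks had been seen, and these values are a description without a test.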

How the data were processed

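Each of the 28 deposited files was a narrowPeak list of 1 library, 22 from a first and 6 from a second deposit, with none pooled. Per the submitters' processing notes the tools were MACS2 3.0.0, deepTools 3.1.1, SAMtools 1.9 and Bowtie2 2.3.4.1 and the build was hg19, with no parameters stated. Per peak, the authors deposited a fold enrichment over the local background, −log10 p and −log10 q values and a summit position. Folds and q values served for ranking, filtering and description inside 1 list and not for comparing lists. A yeast spike-in was added per the labels' protocols; the sources used here state neither its use in processing nor a control library.

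Only autosomes and X were used, which dropped 475 of 1123812 peaks (0.0423%). In each of the 9 comparisons, overlapping peaks (at least 1 bp) of the 4 lists formed the regions. Window lengths under peaks were compared by exact two-sided permutation tests over libraries, without adjustment, since 2 against 2 cannot pass 0.05. The summit pileup was the whole number that returned the deposited fold and −log10 Poisson p within 0.001. Region calls and pileups were tested on simulated data. Named regions were all those gained or lost in a comparison (at most the first 10 by the worse −log10 q rank) and those held by every library. The window, members and lists were chosen with earlier results of these data known. Python 3.11.15, NumPy 2.4.6, pandas 2.3.3, SciPy 1.17.1 and Matplotlib 3.10.9 were used.

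Alternatives were lists cut to equal length, −log10 q of at least 5, a 50% overlap, shares of list length, other H3K27ac Sen libraries, a replicate block and each library left out.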

Additional observations from a re-analysis of the deposited data

How the results depend on the processing

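Without knowledge of read depth, a peak missing from a short list may be one that was not detectable there, and FOXF1 lists ran from 133 to 40537 peaks. The p-c-JUN difference of Sen against Pro kept its direction in all alternatives run, with 7.88 to 14.5 kb and 13 to 34 regions gained. The 50% overlap setting could change no count, since every peak lies whole inside the region it helped to form. Cut to equal list length, FOXF1 gained 1 of 3 window regions in Sen against Pro (11.2% of all regions). After siFOXF1/2 the lists of 133 peaks left 0 FOXF1 regions in the window. None could therefore be lost there (22.0% of all), and the difference in kb was 0. After JUN-KD FOXF1 lost 1 of 1 (19.7% of all). In the same setting p-c-JUN gained 13 of 25 in Sen against Pro (10.2% of all). It lost 1 of 45 after siFOXF1/2 (4.74% of all) and differed there by 0.459 kb, with the sign turned. H3K27ac then lost 0 of 38 in Sen against Pro (8.84% of all) and 4 of 43 after siFOXF1/2 (5.58% of all). After JUN-KD it gained 1 of 15 (7.78% of all) with a difference of -0.95 kb, again turned.

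With −log10 q of at least 5, p-c-JUN after siFOXF1/2 gained 1 and differed by 0.038 kb, turned in sign. H3K27ac gained 3 and lost 0 in Sen against Pro, gained 0 and lost 1 after siFOXF1/2, differed by 0 kb after sip300/CBP, and gained 0 and lost 0 after JUN-KD. With all 4 H3K27ac Sen libraries, Sen against Pro gained 2, siFOXF1/2 gained 1 and lost 0 with a difference of 1.04 kb, and JUN-KD gained 0 and lost 0 with -4.95 kb, both differences turned. With the second-deposit Sen libraries alone, Sen against Pro gained 2, lost 6 and differed by -2.51 kb, turned in sign. Shares over all regions were not counted for the settings of this paragraph. Its region counts therefore do not set the window against the rest of the genome. As a percentage of list length, JUN-KD differed from Sen by -0.0109 points, and as a percentage of window and neighbours by -6.5 points, both turned against the 0.0375 kb of the main value. The causes were not tested.

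Leaving out each library in turn, FOXF1 in Sen against Pro gained 3 to 19 (2.15 to 8.18 kb), and both FOXF1 knockdown comparisons lost 6 to 22 (-8.52 to -2.49 kb). For p-c-JUN, Sen against Pro gained 26 to 34 (13.5 to 14.5 kb), and siFOXF1/2 gained 2 to 6 and lost 2 to 9 (-0.621 to 0.415 kb). For H3K27ac, Sen against Pro gained 8 to 27 and lost 2 to 5 (2.96 to 12 kb), siFOXF1/2 gained 3 to 6 and lost 3 to 17 (-8.45 to 0.56 kb), sip300/CBP gained 0 to 1 and lost 0 to 3 (-1.02 to 0.211 kb), and JUN-KD gained 2 to 16 and lost 2 to 12 (-3.84 to 3.92 kb). A region count rises by construction when 1 library is left to fulfil the rule, and shares over all regions were not counted here either.

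Groups use the same replicate numbers, but the labels state no pairing, and whether the numbers pair the libraries was not tested. With the replicate block the p-c-JUN difference of Sen against Pro was 14 kb (exact sign-flip p = 0.5, the smallest possible). In the 8 comparisons that share numbers the block could not change a difference. The mean of paired differences equals the difference of the means, so only the p-value could differ. H3K27ac after JUN-KD shared none with its Sen libraries.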
